A study of Rattus norvegicus with 14 samples.

Results

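Splicing factors and RNA-binding proteins were taken as every probe set of the array whose single platform gene symbol starts with Hnrnp, Srsf, Sf3, Snrp, Rbm, Elavl, Celf, Khdrbs or Larp. The rule found 112 probe sets of 76 genes among the 15923 probe sets of the table. Of these, 99 probe sets of 72 genes had a mean log2 level of at least 4 over all arrays and entered the tests. The other 13 lay below that level, with means of -0.56 to 3.84, and Snrpn, Rbm38, Rbm47 and Larp1b had no tested probe set.

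RNA came from the microdissected dentate gyrus of male Long-Evans rats aged 3 to 4 months, 1 array per rat and 7 rats per group. No genetic change is given in the labels, and both groups had learned a standard water maze 2 to 3 weeks before a session of 8 trials, 8 min apart, in a pool at another site. Learning rats had orienting cues and a visible platform that kept its place. Control rats had a platform that moved between trials and no informative cues, so both groups swam. Every rat had a 90 s probe swim 1 h after the session, and tissue was taken straight afterwards. The comparison addresses how transcript levels respond when a swim session offers new places to learn.

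Pre-mRNA splicing is carried out by the spliceosome, whose small nuclear ribonucleoproteins (the Snrp proteins and the SF3 complexes of U2) recognise splice sites and the branch point. SR proteins (Srsf) mostly favour the use of nearby exons, and heterogeneous nuclear ribonucleoproteins (Hnrnp) often oppose it. ELAVL, CELF and KHDRBS proteins set neuronal splice patterns and the stability of messages, and LARP proteins act on the stability and translation of mRNA.

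Promoter sequences were read for the members because the cAMP response element, bound by CREB, is the best known promoter element of learning-related transcription. The RefSeq table (build GRCr8) held 78 windows of 70 of the 76 genes, each running from 250 bases before to 50 after the annotated start. The windows below belong to the probe set with the largest difference, to the gene whose groups did not overlap, and to the gene whose probe sets differed most clearly from each other. Capitals mark the letters TGACG, the core of the element, read on the printed strand.
Hnrnpa2b1, chr4:81875837-81876136, minus strand: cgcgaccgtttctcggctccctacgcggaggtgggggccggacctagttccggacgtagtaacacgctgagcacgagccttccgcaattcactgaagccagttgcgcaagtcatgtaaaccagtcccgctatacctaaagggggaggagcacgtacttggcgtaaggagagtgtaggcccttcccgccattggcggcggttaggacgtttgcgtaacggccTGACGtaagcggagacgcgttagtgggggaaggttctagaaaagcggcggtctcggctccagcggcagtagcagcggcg
Larp4b, chr17:65908627-65908926, minus strand: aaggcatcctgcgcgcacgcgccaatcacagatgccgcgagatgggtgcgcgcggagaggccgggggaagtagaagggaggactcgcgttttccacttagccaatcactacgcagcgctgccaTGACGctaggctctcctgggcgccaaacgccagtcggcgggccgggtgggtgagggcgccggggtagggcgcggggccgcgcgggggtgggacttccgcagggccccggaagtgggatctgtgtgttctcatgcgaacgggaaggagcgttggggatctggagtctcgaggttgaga
Rbm39, chr3:165156186-165156485, minus strand: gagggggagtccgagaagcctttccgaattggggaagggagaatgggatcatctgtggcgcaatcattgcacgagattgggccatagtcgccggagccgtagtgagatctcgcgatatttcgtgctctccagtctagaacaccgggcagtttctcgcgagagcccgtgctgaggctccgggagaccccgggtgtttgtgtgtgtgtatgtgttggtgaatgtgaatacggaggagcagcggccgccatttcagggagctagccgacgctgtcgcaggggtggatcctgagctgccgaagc
The windows of Hnrnpa2b1 and Larp4b each held 1 match to TGACG counted on both strands, and that of Rbm39 held 0. Over the members, 37 of 78 windows (47.4%) held TGACG, against 33.2% of the 6259 windows of genes with a tested probe set and 21.2% of all 33469 windows. The full element TGACGTCA, which contains that core, was found in 1 member window, that of Rbm18 (1.28%), against 3.04% and 1.83%. A match is only a run of letters, and binding was not measured.

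No member passed the adjusted threshold in learning against control. All values below are log2 expression levels per probe set as deposited, and a difference is the learning mean minus the control mean with its standard error (SE). In limma's test with Benjamini-Hochberg adjustment over all 9387 tested probe sets, 0 of 99 members had an adjusted p below 0.05, and the same held for 0% of all tested probe sets. The lowest adjusted p of a member was 0.153. At an unadjusted p below 0.05, 6 members were higher in learning rats (6.06%, against 6.43% of all tested probe sets) and 15 were lower (15.2%, against 6.67%). The higher share was near the background and the lower share was above it. Some of the 15 are probe sets of the same gene, and with 1 probe set per gene 9 of 72 were lower. In that setting 18.1% of members and 12.8% of all tested probe sets were below that p in either direction. The groups did not overlap for 1 member, Larp4b, against 0.405% of all tested probe sets.

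The members' differences ran both ways. They spanned -0.53 to 0.45, with 45 above 0, 54 below and a median of -0.01, beside a median of 0.01 over all tested probe sets. The median absolute difference was 0.10 for members and 0.08 for all tested probe sets. A difference of at least 0.25 in either direction was seen in 17 members (17.2%), against 8.17% of all tested probe sets. The mean level over all tested members lay between 8.07 and 8.16 on the control arrays and between 8.02 and 8.16 on the learning arrays, so the families as a whole did not separate the groups.

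**Figure D1:**
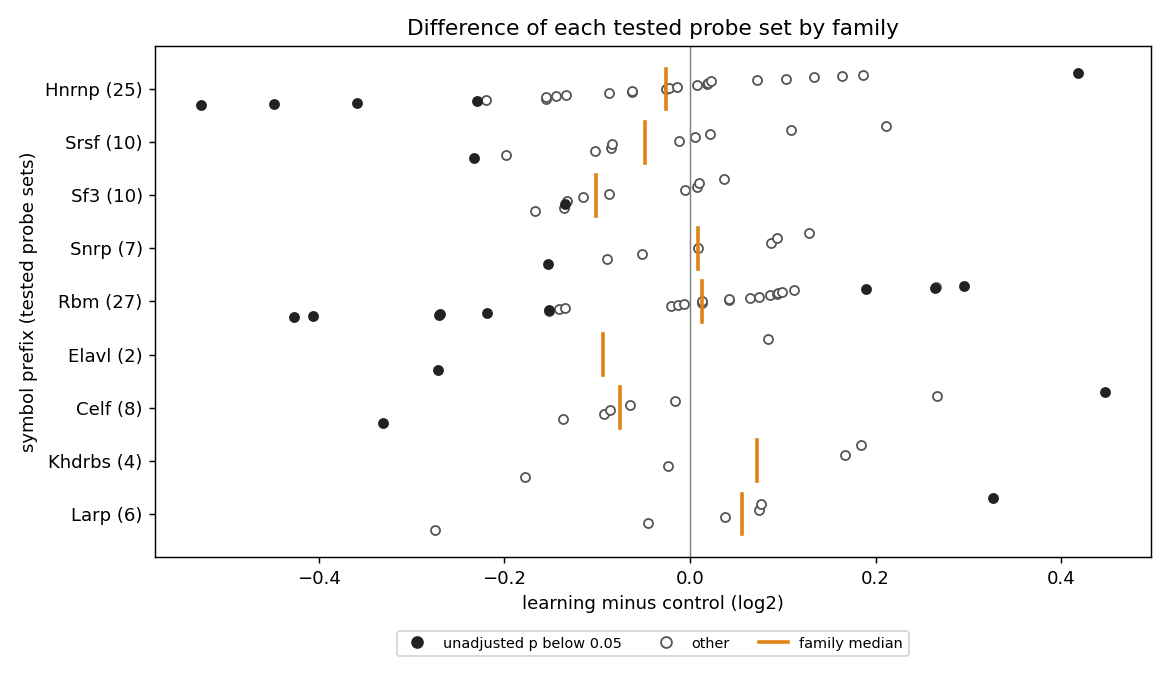
Learning minus control (log2, horizontal axis) for each of the 99 tested probe sets, by symbol prefix, with the number tested in brackets. Filled points have an unadjusted p below 0.05 and the orange line is the median of the family; the points lie between -0.53 and 0.45, and the filled points are mostly Hnrnp and Rbm probe sets.

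Array medians lay between 5.09 and 5.12, and any pair of arrays correlated at 0.995 to 0.998 over probe sets. The granule cell marker Prox1 was at 10.3 in both groups, and Calb1 differed by -0.03. The granule cell markers Dsp and Stxbp6 were higher in learning rats by 0.44 and 0.22. The mean of 6 of 9 listed CA1 markers was higher in learning rats by 0.28 (7.46 to 8.43 in controls, 7.91 to 8.29 in learning rats), with 5 of the 6 higher. These markers were uneven: Wfs1 differed by 0.95 (control SD 1.07), Mpped1 by 0.37, Fibcd1 by 0.31, Lmo4 by 0.11, Lmo3 by 0.0025 and Itpka by -0.05. The mean of 2 of 6 choroid plexus markers was lower by 0.91 (6.67 to 7.98 against 6.34 to 6.61), which rested on Ttr alone (-1.78), since Enpp2 differed by -0.04. The mean of 8 of 9 meningeal markers was lower by 0.37 with ranges that overlapped. The mean of 4 of 8 listed granule cell markers differed by 0.17, with 3 higher and 1 lower. The mean of 6 of 7 microglial markers differed by -0.17, with 1 higher and 5 lower. RNA integrity was read from the beta-actin controls, whose 3' minus 5' difference was higher by 0.09 (1.21 to 1.47 against 1.27 to 1.58). With the CA1 marker mean as a covariate, 7 members were lower at an unadjusted p below 0.05 in place of 15, and members in either direction made up 12.1% against 10.3% of all tested probe sets. With the meningeal mean or the beta-actin difference as a covariate, 15 and 16 members were lower. Members in either direction then made up 20.2% and 21.2%, against 11.9% of all tested probe sets in each fit. The part of Ttr in the result was not tested. In this bulk tissue, fewer cells of a type and less RNA per cell cannot be told apart.

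Among the hnRNPs, all 25 probe sets (16 genes) were tested, with 10 higher and 15 lower and a median difference of -0.03. At an unadjusted p below 0.05, 1 was higher (4%, against 6.43% of all tested probe sets) and 4 were lower (16%, against 6.67%). Hnrnpa2b1, which acts in splicing and in the transport of mRNAs into dendrites, had the largest difference of any member. Its probe set 1398883_at ran from 10.55 through a median of 10.81 to 11.00 on the control arrays and from 9.83 through 10.27 to 10.63 on the learning arrays. The ranges overlapped, but 5 of the 7 learning arrays lay below every control array. The difference was -0.53 (SE 0.12, n = 7 and 7, a 1.44-fold lower level, limma adjusted p = 0.156). The gene's second probe set, 1373540_at, ran from 7.02 through 7.44 to 7.54 in controls and from 6.62 through 6.95 to 7.35 in learning rats. It differed in the same direction by -0.36 (SE 0.11, limma adjusted p = 0.233), with 4 learning arrays below every control array. Hnrnpa2b1 was thus low on most learning arrays by both of its probe sets, without passing the threshold in either.

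Hnrnpu encodes the nuclear matrix protein also known as scaffold attachment factor A, and its probe sets did not share a difference. Probe set 1372823_at ran from 8.13 through 8.32 to 8.76 in controls and from 8.66 through 8.83 to 9.01 in learning rats, a difference of 0.42 (SE 0.10, 1.34-fold, limma adjusted p = 0.168). On this probe set 4 learning arrays lay above every control array. The brighter probe sets 1370170_at and 1370171_at differed by -0.01 (95% interval -0.15 to 0.13) and -0.09 (-0.29 to 0.11).

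Of the other hnRNPs, Hnrnpd, which binds AU-rich elements of mRNAs, differed by -0.23 (SE 0.09, limma adjusted p = 0.289), with 5 learning arrays below every control array, and by -0.17 without control array 7, the highest of its group. Hnrnpul1, related in sequence to Hnrnpu, differed by -0.45 with a wide spread (SE 0.19, limma adjusted p = 0.347). It falls outside the rule for named genes and was chosen after its values were seen. Hnrnpa3, a shuttling protein of the A/B group, had 4 tested probe sets that were all slightly higher, among them 1374405_at (0.19) and 1388119_at (0.13), neither below an unadjusted p of 0.05. All 3 probe sets of Hnrnpa1, a splicing repressor of the same group, were lower by 0.13 to 0.22, and none of them was below that p either. Hnrnph1, which binds G-rich RNA and had the highest mean of the family, differed by -0.03.

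**Figure D2:**
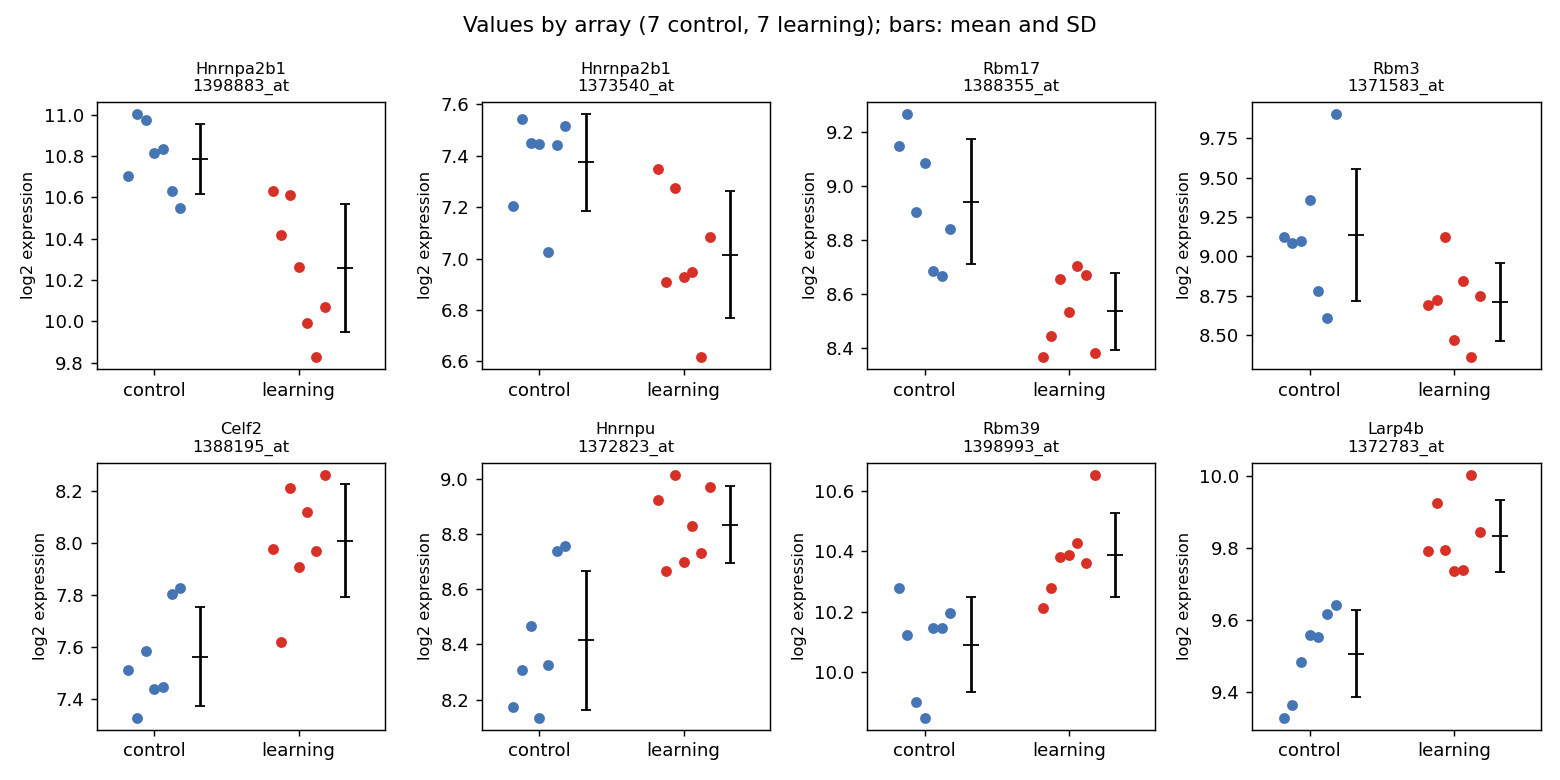
Log2 expression level (vertical axes, each on its own scale) of 8 probe sets on the 7 control arrays in blue and the 7 learning arrays in red; the black bar is the group mean with its SD. Larp4b 1372783_at is the panel whose groups do not overlap, while in the Hnrnpa2b1 1398883_at panel 5 learning arrays lie below every control array.

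The SR proteins gave smaller differences: 10 of 12 probe sets were tested, 4 were higher and 6 lower, and the median was -0.05. Srsf6, which binds exonic enhancers, had the 1 probe set with an unadjusted p below 0.05 (10%, against 13.1% of all tested probe sets). That probe set, 1371999_at, ran from 7.17 through 7.44 to 7.51 in controls and from 6.89 through 7.21 to 7.38 in learning rats, a difference of -0.23 (SE 0.08, limma adjusted p = 0.241). The groups overlapped on 4 of the 7 learning arrays, and the other Srsf6 probe set, 1372075_at, differed by -0.08. Srsf2 and Srsf1, the classical SR proteins, each had a pair of probe sets that did not match: 0.11 and -0.10 for Srsf2, and 0.0057 and 0.21 for Srsf1. Srsf5, the one of highest mean, differed by -0.09.

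Of the member families, the Sf3 and Snrp genes showed the narrowest ranges. The Sf3 genes encode subunits of the SF3a and SF3b complexes, which bind the branch point region within U2. Of their 10 tested probe sets 3 were higher and 7 lower, with differences of -0.17 to 0.04 and a median of -0.10. The 1 with an unadjusted p below 0.05 (10%, against 13.1% of all tested probe sets) was Sf3b2 1377070_at, at -0.14 (SE 0.06, limma adjusted p = 0.348). The brighter Sf3b2 probe set, 1388614_at, differed by -0.0055 (95% interval -0.15 to 0.14). Sf3b6, which contacts the branch point adenosine, differed by 0.0076.

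Among the 7 tested Snrp probe sets, 4 were higher and 3 lower. Snrpa, a protein of the U1 particle, ran from 5.91 through 5.96 to 6.21 in controls and from 5.74 through 5.87 to 5.93 in learning rats. Although 6 of 7 learning arrays lay below every control array, the difference was small, at -0.15 (SE 0.05, limma adjusted p = 0.269). The Sm ring proteins Snrpd3 and Snrpd2 differed by 0.13 and 0.09, neither below an unadjusted p of 0.05.

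The RBM genes share a numbered name and an RNA recognition motif, not a common function. They held 9 of the 21 members with an unadjusted p below 0.05: of 27 tested probe sets 3 were higher (11.1%, against 6.43% of all tested probe sets) and 6 lower (22.2%, against 6.67%). In all, 15 were above 0 and 12 below. Rbm17, a splicing factor that acts at the 3' splice site, ran from 8.67 through 8.91 to 9.27 in controls and from 8.37 through 8.53 to 8.70 in learning rats. The groups overlapped narrowly, with 5 learning arrays below every control array. Its difference was -0.41 (SE 0.10, 1.33-fold lower, limma adjusted p = 0.167).

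Rbm3, a cold-inducible RNA-binding protein, ran from 8.61 through 9.10 to 9.90 in controls and from 8.36 through 8.73 to 9.13 in learning rats. The difference was -0.43 with a larger spread (SE 0.17, limma adjusted p = 0.310) and ranges that overlapped, only 2 learning arrays lying below every control array. Without control array 7 the Rbm3 difference was -0.30. The other cold-inducible gene, Cirbp, chosen after its values were seen, differed by -0.26 (SE 0.21, limma adjusted p = 0.610).

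Rbm18 differed by -0.27 (SE 0.10, limma adjusted p = 0.266), and by -0.20 without learning array 3, the lowest of its group. Rbm4b, a splicing regulator with a close copy in Rbm4, differed by -0.15 (SE 0.06, limma adjusted p = 0.297) at a low level of 4.54 against 4.39. In the other direction, Rbmx, the X-linked hnRNP G, differed by 0.19 (SE 0.08, limma adjusted p = 0.348), with 3 learning arrays above every control array. Rbm25, which regulates the splicing of an apoptosis gene, differed by 0.26 (SE 0.12, limma adjusted p = 0.353), with 2 such arrays, and by 0.18 without control array 2. Rbm15, an adaptor of the complex that methylates adenosines in mRNA, also differed by 0.26 and did not reach an unadjusted p below 0.05 (limma adjusted p = 0.382).

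Rbm39, a splicing factor related to U2AF and a transcriptional coactivator, was measured by 4 probe sets whose differences pointed both ways. Probe set 1398993_at ran from 9.85 through 10.14 to 10.28 in controls and from 10.21 through 10.38 to 10.65 in learning rats, a difference of 0.29 (SE 0.08, limma adjusted p = 0.209), with 5 learning arrays above every control array. Probe set 1379737_a_at ran from 7.88 through 8.09 to 8.35 in controls and from 7.70 through 7.79 to 8.00 in learning rats, a difference of -0.27 (SE 0.08, limma adjusted p = 0.212). On 1381967_at the controls ran from 9.08 through 9.19 to 9.65 and the learning rats from 8.89 through 9.02 to 9.29, a difference of -0.22 (SE 0.09, limma adjusted p = 0.313). On the last of these, 6 of 7 learning arrays lay below every control array. The brightest probe set, 1399101_at, differed by 0.01 (95% interval -0.13 to 0.15). The probe sets of Rbm39 thus gave no single direction.

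**Figure D3:**
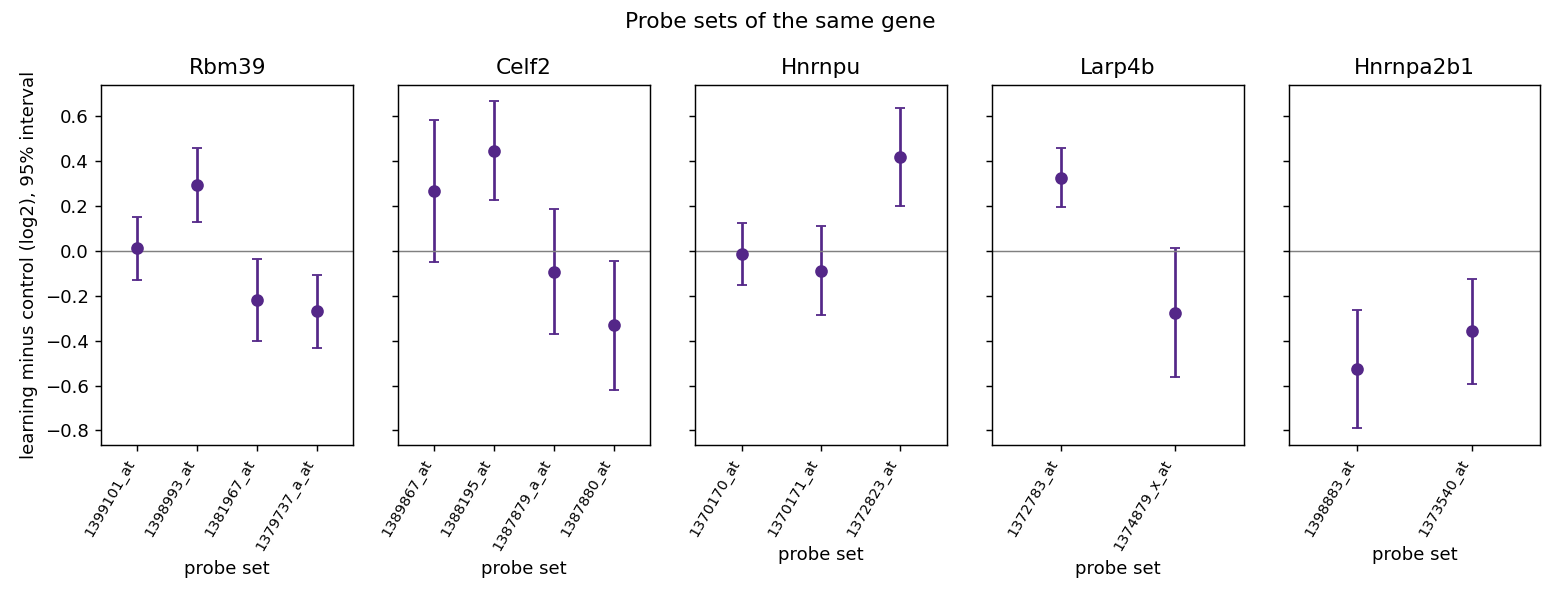
Learning minus control (log2, vertical axis) for every tested probe set of 5 genes, ordered within a gene from the highest to the lowest mean level; points are the differences and bars their 95% intervals. Probe sets of Rbm39, Celf2, Hnrnpu and Larp4b lie on both sides of 0, and both probe sets of Hnrnpa2b1 lie below it.

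Of the neuronal ELAVL genes only Elavl4, encoding HuD, which stabilises neuronal mRNAs, was among the tested probe sets. It lay close to the filter, from 4.23 through 4.50 to 4.97 in controls and from 4.06 through 4.36 to 4.55 in learning rats, and differed by -0.27 (SE 0.11, limma adjusted p = 0.338). Elavl1, the ubiquitous family member HuR, differed by 0.08 (95% interval -0.09 to 0.26).

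The CELF proteins regulate alternative splicing and mRNA decay. Of 8 tested probe sets of 4 genes, 2 were higher and 6 lower, and both that were higher belonged to Celf2. Celf2 1388195_at ran from 7.33 through 7.51 to 7.83 in controls and from 7.62 through 7.98 to 8.26 in learning rats, and 6 of 7 learning arrays lay above every control array. The difference was 0.45, the highest of any member (SE 0.10, 1.36-fold, limma adjusted p = 0.153). In contrast, Celf2 1387880_at ran from 6.56 through 6.69 to 7.00 in controls and from 5.75 through 6.50 to 6.82 in learning rats, a difference of -0.33 (SE 0.13, limma adjusted p = 0.330). The remaining Celf2 probe sets differed by 0.27 (1389867_at) and -0.09 (1387879_a_at), neither with an unadjusted p below 0.05. They were 0.10 with the CA1 covariate and -0.0031 without control array 6, respectively. Celf1 differed by -0.14 (1388704_at, -0.062 without control array 2) and -0.09 (1371900_at, -0.057 without learning array 5). Celf4 differed by -0.06 (-0.0089 without learning array 7) and Celf5 by -0.02 (95% interval -0.16 to 0.12).

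KHDRBS proteins, of which KHDRBS1 is Sam68, regulate neurexin splicing in neurons. None of their 4 tested probe sets had an unadjusted p below 0.05. Khdrbs1 differed by -0.02 (95% interval -0.16 to 0.11) on its bright probe set and by 0.18 (-0.16 to 0.53) on a probe set near the filter. Khdrbs2 differed by -0.18 (-0.44 to 0.08) and Khdrbs3 by 0.17 (-0.15 to 0.48). These intervals leave room for differences as large as those of most members named above. Single arrays and, for Khdrbs2, the CA1 covariate weighed on these values. Khdrbs2 was at -0.095 without control array 3 and -0.055 with the CA1 covariate. Khdrbs3 was at 0.093 without learning array 6, and Khdrbs1 1386896_at at 0.078 without learning array 7.

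Larp4b, which binds the poly(A)-binding protein and mRNA and influences translation, was the member with the smallest p. Its probe set 1372783_at ran from 9.33 through 9.55 to 9.64 in controls and from 9.74 through 9.79 to 10.00 in learning rats. Every learning array lay above every control array. The difference was 0.33 (SE 0.06, 1.25-fold, 95% interval 0.19 to 0.46), with an unadjusted limma p of 0.0001 and an adjusted p of 0.153. The second probe set, 1374879_x_at, ran from 6.39 through 6.68 to 6.99 in controls and from 6.02 through 6.46 to 6.87 in learning rats, a difference of -0.27 (SE 0.13, limma adjusted p = 0.400), and of -0.12 with the CA1 covariate. By the maker's naming, the suffix x marks probes that can also bind other transcripts. Larp1, which binds the mRNAs of ribosomal proteins, had 4 tested probe sets with differences of -0.05 to 0.08, none with an unadjusted p below 0.05.

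Whether probe sets of 1 gene differ in their group difference was tested directly, on the within-array difference between the 2 brightest tested probe sets of a gene. Over 922 genes, 0.434% had an adjusted p below 0.05 and 16.4% an unadjusted p below 0.05. Of the 17 member genes with 2 or more tested probe sets, 0 passed the adjusted threshold in limma and 3 (17.6%) had an unadjusted p below 0.05, a share near the background. These were Larp4b (0.60, SE 0.15, limma adjusted p = 0.0732), Rbm39 (-0.28, limma adjusted p = 0.215) and Srsf2 (0.21, limma adjusted p = 0.299). For Larp4b the within-array difference averaged 2.78 in controls and 3.38 in learning rats. The next in order were Srsf1 (-0.21), Srsf6 (0.15) and Sf3b2 (0.13). The pair differed in sign in 5 of 17 member genes (29.4%), against 445 of 922 genes (48.3%).

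When every pair of tested probe sets of a gene was tested, an alternative chosen after the data had been seen, 3 of 41 member pairs passed the adjusted threshold, against 0.523% of all 1338 pairs. At an unadjusted p below 0.05 there were 11 member pairs (26.8%), against 15.8% of all pairs. Pairs of a gene share probe sets, so these are not independent. The largest in standard errors was Rbm39 1398993_at minus 1379737_a_at, which averaged 1.99 in controls and 2.55 in learning rats, a change of 0.56 (SE 0.11, limma adjusted p = 0.0343).

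Rbm39 1398993_at minus 1381967_at ran from 0.63 to 1.07 within control arrays and from 1.10 to 1.76 within learning arrays, with no overlap, a change of 0.51 (SE 0.10, limma adjusted p = 0.0353). The share of all 1338 pairs with no overlap is not given here. Celf2 1388195_at minus 1387880_at averaged 0.83 in controls and 1.61 in learning rats, a change of 0.78 (SE 0.17, limma adjusted p = 0.0424). Hnrnpu 1370170_at minus 1372823_at (-0.43, limma adjusted p = 0.0625) and Larp4b (0.60, limma adjusted p = 0.0657) stood just outside the threshold. The Rbm39 calls were lost on leaving out any one of 9 of the 14 arrays, with adjusted p up to 0.0768 and 0.0910, and the Celf2 call on leaving out any one of 10, with adjusted p up to 0.108. The Rbm39 calls held without control array 6 or 7 or learning array 1, 2 or 4, and the Celf2 call without control array 6 or 7 or learning array 1 or 2. With the CA1 marker mean as a covariate the 3 changes were 0.55, 0.44 and 0.82, against 0.56, 0.51 and 0.78 without it, while the SEs were larger (0.13, 0.12 and 0.20) and the adjusted p was 0.157, 0.196 and 0.157. The direction was kept in each of these fits. The probe sets' positions within the transcripts were not analysed here, so these differences cannot be assigned to named exons or transcript ends.

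**Figure D4:**
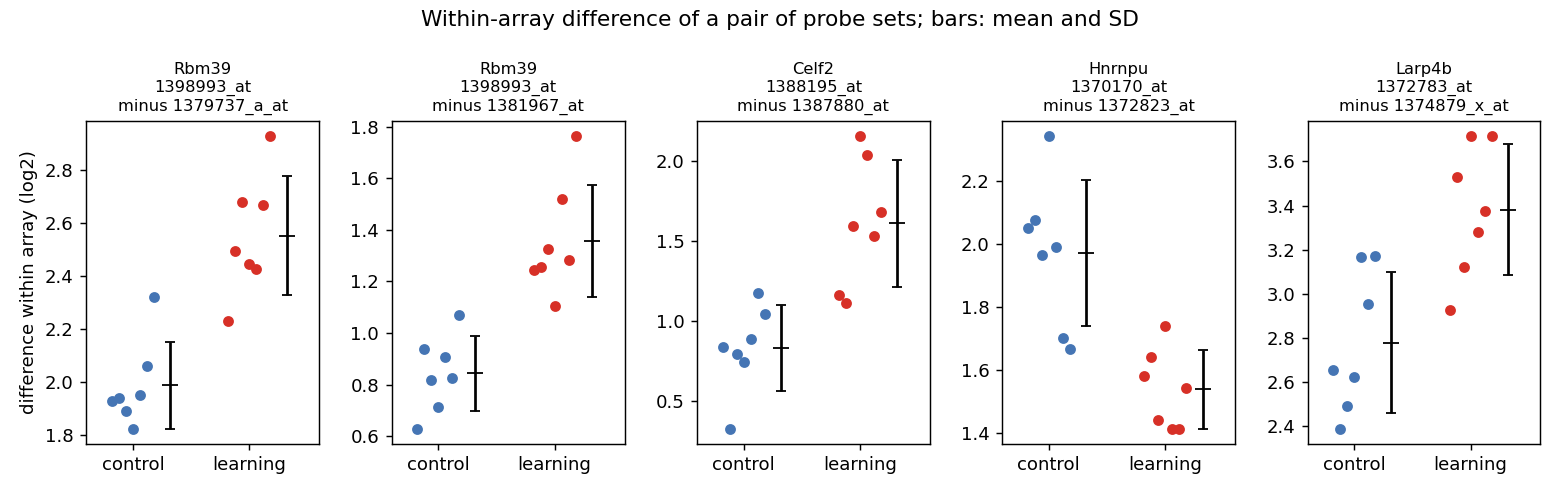
Difference between 2 probe sets of the same gene within each array (log2, vertical axes, each on its own scale), for the 5 member pairs of smallest p among all pairs; blue points are the 7 control arrays, red points the 7 learning arrays, and bars the mean and SD. The Rbm39 pair with 1381967_at runs from 0.63 to 1.07 in controls and from 1.10 to 1.76 in learning rats.

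Other genes of RNA processing were read from 5 lists, 1 probe set per gene, and 0 of their genes had a limma adjusted p below 0.05, the lowest being 0.233. At an unadjusted p below 0.05 in either direction, the background was 13.1% of all tested probe sets. Of 41 tested core spliceosome genes outside the member families, 0 were higher and 4 lower at that level (9.76%, below the background), led by Usp39 (-0.30), a factor of the tri-snRNP, and Puf60 (-0.18), which binds the polypyrimidine tract. Of 22 splicing kinases and SR-related genes 1 was higher and 5 were lower (27.3%), with the SR-like splicing activator Tra2a at -0.34 and Pnisr at -0.32. The other Pnisr probe set differed by -0.10. The median differences of these lists were -0.02 and -0.03.

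Among 8 neuronal and tissue splicing regulators 0 were higher and 1 lower at that level (12.5%, near the background): Ptbp1, a repressor of neuronal exons, at -0.18, followed by its relative Ptbp3 at -0.12. Of 20 other hnRNP-like genes 3 were higher and 4 lower (35%), with Pcbp4, a poly(C)-binding protein, at 0.31 and the cleavage factor gene Cpsf7 at -0.31. The other Cpsf7 probe sets both differed by 0.07. Of 21 cytoplasmic and dendritic RNA-binding genes 3 were higher and 1 lower (19%), with Caprin1, a component of dendritic RNA granules, at 0.23 and 0.16 on its 2 probe sets and Zfp36l1, which promotes the decay of AU-rich mRNAs, at 0.26.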

How the data were processed

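Per the labels' protocols, biotin-labelled RNA was measured on Affymetrix RAE230A arrays. Groups and replicate numbers came from the titles, which call the arrays biological replicates; no batch is given. The authors deposited 1 log2 value per probe set and array, from GCRMA per the submitters' processing notes. Neither the version nor the settings of GCRMA are stated there.

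Of 15923 probe sets 57 are controls; of the rest 12783 have 1 platform gene symbol, 312 several and 2771 none listed. All 112 member gene IDs matched the GRCr8 gene table, with 0 symbol changes. A further 10 probe sets list several symbols including one with a member prefix, and were left out. Probe positions were not analysed, so probe sets of genes with close copies are uncertain.

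The group difference was estimated by limma 3.58.1 in R 4.3.3 (lmFit, eBayes, no covariate, prior of 3.18 degrees of freedom, Benjamini-Hochberg threshold 0.05) on all 9387 probe sets other than controls with a mean of at least 4. The number of arrays limits the precision. Within-array differences of the 2 brightest probe sets of a gene were fitted the same way. The fit of single probe sets was tested on simulated data, and the fit of pairs was not. The text names the 12 members of smallest p per direction, the brightest of each larger family, every Celf, Khdrbs, Larp and neuronal Elavl probe set, members with no overlap, 6 genes of the pair test and 2 genes per other list; exceptions are stated. Members, lists and tests were chosen with earlier results of these data known. Alternatives were filters, scalings, priors, weights, a replicate block, covariates, a floor at 3 and each array left out; every pair of probe sets was added after the data had been seen. Figures were drawn with matplotlib 3.10.9.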

Additional observations from a re-analysis of the deposited data

Results flagged for a closer look

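Values on single arrays were flagged where an array lay farther from the rest of its group than Dixon's criterion for 7 samples allows. This was so in 7 of 100 groups of arrays examined, and chance flags about 1 in 20. For Rbm25 the learning array 4 was at 7.75, below the other learning arrays (7.97 to 8.14), and the difference without it was 0.31. Over all left-out arrays the Rbm25 difference ran from 0.18 (without control array 2) to 0.32 (without control array 6). For Hnrnpa3 1388119_at the learning array 5 was at 10.3 (10.29; the others 10.03 to 10.13), with a difference of 0.11 without it. For Rbm18 the learning array 3 was at 6.94, below the others at 7.31 to 7.49, and the difference moved from -0.27 to -0.20 without it.

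For Hnrnpd the control array 7 was at 11.5, above 11.00 to 11.16, and the difference without it was -0.17. For Rbm39 1381967_at the control array 1 was at 9.65, above 9.08 to 9.32, and the difference without it was -0.15. For Hnrnph1 the control array 1 was at 10.8, below 11.09 to 11.26, and the difference without it was -0.08. For Larp1 1390113_a_at the learning array 5 was at 5.79, above 5.24 to 5.45, and the difference without it was 0.01.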

How the results depend on the processing

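No member passed the adjusted threshold under any of 27 alternatives. The count of lower members at an unadjusted p below 0.05 was 7 with the CA1 marker mean as a covariate and 9 with 1 probe set per gene. Leaving out single arrays gave 13 to 18, and 4 to 9 for the higher members. Over the left-out arrays, members in either direction made up 17.2% to 26.3%, against 10.1% to 14.7% of all tested probe sets. Members with no overlap numbered 2 after quantile normalization, 2 without control array 1, 5 or 6 or learning array 4 or 7, and 3 without control array 7 or learning array 2. The share of all tested probe sets with no overlap was 0.405% in the main fit and is not given here for these settings. With an array left out, non-overlap is easier to reach for any probe set, so these counts are not read as a result about the members. In the test of the 2 brightest probe sets, 1 member gene (Larp4b) passed the adjusted threshold with the beta-actin 3' minus 5' covariate (limma adjusted p = 0.0474). It also passed without learning array 1 (0.0444), with 0 to 1 member genes over the left-out arrays. Over all genes the count was 11 without learning array 1, its highest over the left-out arrays, against 4 of 922 in the main fit. That count is not given here for the beta-actin covariate. When every pair with the brightest probe set was used, 5 of the 17 member genes had an unadjusted p below 0.05. With every pair, 5 genes did so and 2 passed the adjusted threshold. The share over all genes is not given here for these counts, and a gene with more than 2 probe sets had several pairs. The Rbm39 and Celf2 pair calls were also lost with the meningeal covariate (adjusted p 0.0506 each) and the beta-actin covariate (0.0802, 0.0945 and 0.0954), where the changes stayed near those reported (0.54, 0.50 and 0.78 in both fits), and Celf2 without a filter (0.0898). The Hnrnpu pair passed without control array 6 (0.0401) or 7 (0.0373), the Larp4b pair without control array 7 (0.0471) or learning array 1 (0.0448).

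Only differences near 0 changed sign among the named probe sets: Srsf1 1371581_at to -0.0021 after quantile normalization, -0.0036 with the meningeal and -0.0035 with the beta-actin covariate; Sf3b6 to -0.00075 with array weights and -0.0064 with the CA1 covariate; under the latter also Celf5 to 0.029, Khdrbs1 1398773_at to 0.028 and Larp1 1392746_x_at to -0.038; Sf3b2 1388614_at to 0.013 with the meningeal and Rbm39 1399101_at to -0.057 with the beta-actin covariate. Over the left-out arrays the differences ran from -0.022 to 0.042 for Srsf1 1371581_at, -0.022 to 0.037 for Sf3b6, -0.048 to 0.021 for Celf5, -0.060 to 0.0054 for Khdrbs1 1398773_at, -0.10 to 0.043 for Larp1 1382670_at, -0.051 to 0.14 for Larp1 1392746_x_at, -0.040 to 0.021 for Sf3b2 1388614_at and -0.022 to 0.041 for Rbm39 1399101_at. The cause of these shifts was not tested. Deviations of same-numbered arrays correlated at -0.28 to 0.26, with 4 of 7 over 0.1 and 6 of 14 arrays correlating best with their own number. These values do not settle whether the numbers pair the rats, and the main fits did not pair them. The replicate block gave 17 lower members in place of 15 and 0 at an adjusted p below 0.05. Members at an unadjusted p below 0.05 in either direction then made up 24.2%, against 14.2% of all tested probe sets. Without the block the shares were 21.2% and 13.1%. Signal near background limits Elavl4, Rbm4b and Khdrbs1 1386896_at most.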
